A study of Mus musculus with 34 samples.

Results

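The 6 libraries described here come from a pair of mouse cell lines that had received ethanol, the vehicle of the hormone, and no glucocorticoid. They are 3 libraries of D647V-Tetra and 3 of D647V, chosen by line and treatment from the 34 libraries of the study. Both lines derive from 3617 mammary adenocarcinoma cells that lack their own glucocorticoid receptor (GR, gene Nr3c1) after a knockout and stably express a GFP-tagged mouse GR. D647V carries a single receptor substitution, and D647V-Tetra carries that substitution together with the Tetra form of the receptor, which the labels do not define. Both were kept for at least 24 h in medium with 10% charcoal-stripped serum and 5 µg/ml tetracycline, and then received ethanol (EtOH) for 2 h. Libraries of the same lines given 100 nM dexamethasone (Dex), a synthetic glucocorticoid, for 2 h, and 2 EtOH libraries of a line with wild-type GR (WT), belong to the same library set and are used for comparison. The labels give 1 line per receptor form, so an effect of the receptor and any other difference between these 2 lines cannot be told apart. They give triplicates without saying whether the cultures were separate, and p-values may therefore measure only technical spread. In total RNA of bulk cells, fewer expressing cells and less RNA per cell cannot be told apart.

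GR is a nuclear receptor that stays mostly in the cytoplasm with chaperones until a glucocorticoid enters the cell, and then moves to the nucleus, binds DNA and recruits coactivators or corepressors. The D647V substitution lies in the ligand-binding domain. In earlier work the name Tetra was given to a substitution in the DNA-binding domain that makes GR assemble as tetramers. In mammary cells GR is known for inducing genes such as Tsc22d3 (the anti-inflammatory protein GILZ), Fkbp5 and Sgk1.

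Counts summed to 70711346 to 79776573 per library in D647V and 65271217 to 75690146 in D647V-Tetra, with 21760 to 22441 genes detected. Luminal mammary markers were near absent: their summed level was 8.98 to 11.9 CPM (counts scaled to the library total) over 17 genes, and Epcam, Foxa1, Elf5, Kit, Cldn3 and Cldn7 were at 0 in both lines. The 9 fibroblast markers summed to 1968 to 2863 CPM, with Lum, Fap and Thy1 at 0. The 8 basal and myoepithelial markers summed to 3.71 to 5.13 CPM. Markers of immune cells (3.23 to 4.56 CPM), endothelial cells (2.09 to 2.74 CPM) and adipocytes (at most 0.229 CPM) were low in both. Many markers had too few counts to be tested. The tested ones were 5 luminal, 4 basal and myoepithelial, 5 fibroblast, 3 immune, 2 endothelial and 2 adipocyte markers. None of these tested markers was called different. In a longer list of 11 tested basal and myoepithelial genes 2 were called lower in D647V-Tetra, the myosin kinase gene Mylk (-0.26) and the integrin gene Itga6 (-0.16), both in at most 1 of the 6 fits that left out an EtOH library. D647V replicate 1 and D647V-Tetra replicate 1 stood apart from each other more than any other pair of one replicate per line in how the level depended on transcript length, and counts are given with and without them below.

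In EtOH 795 of 17535 genes tested (4.53%) were called different between the lines, at an adjusted p below 0.05 in the quasi-likelihood test of edgeR, with p-values adjusted by Benjamini-Hochberg over all genes tested. Of these, 93 were higher in D647V-Tetra (0.53% of genes tested) and 702 were lower (4.0%). The differences were small: the median fold change on the log2 scale was 0.37 for the higher genes and -0.31 for the lower ones, and 91 genes (0.519%) differed by 1.5-fold or more, 37 higher (0.211%) and 54 lower (0.308%). Of the higher genes 44 were protein-coding, 6 were small nucleolar RNAs, 4 small nuclear RNAs and 3 small Cajal body RNAs. Of the lower genes 682 were protein-coding, and they included transcription coactivators, extracellular matrix proteins and signalling receptors. CPM values of the 2 lines did not overlap for 25.8% of all genes tested. Without both replicate 1 libraries 50 genes were called, 3 higher and 47 lower. The 3 higher were Zfas1, C130036L24Rik and Snhg20, and the lower ones included Pdlim5, Vgll3, Col6a3, Lamc1, Bmpr2, Zbtb20 and Clcn5. Leaving out D647V replicate 1 left 188 calls, D647V replicate 2 left 215, D647V replicate 3 left 784, D647V-Tetra replicate 1 left 256 and D647V-Tetra replicate 3 left 330, whereas without D647V-Tetra replicate 2 there were 1131. Of 113 called genes with values listed by name, 32 were called in each of these 6 fits and 8 in none.

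The receptor transcript and the hormone-induced genes were examined first. Nr3c1 was at 285.4, 288.8 and 287.2 CPM in D647V and at 273.7, 258.5 and 255.8 CPM in D647V-Tetra. The groups did not overlap, and the difference of -0.13 ± 0.04 (log2, SE) did not pass the test (adjusted p = 0.0822, edgeR). With Dex the line difference of Nr3c1 was -0.31 and was called (adjusted p = 0.000355, edgeR). In WT with EtOH Nr3c1 was at 336.8 and 341.2 CPM, above every EtOH library of both lines. Hras, whose viral relative is part of a reporter array in 3617 cells, differed by 0.12 (log2, adjusted p = 0.261, edgeR).

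Of 44 classic GR-induced genes 38 were tested, and 4 were called in EtOH, beside 4.53% of all genes: 1 higher and 3 lower, with a list median of 0.04 (log2) against -0.0017 over all genes. With offsets for transcript length and GC content 1 was higher and 1 lower, beside 48 higher and 215 lower of 17535 genes tested. Tsc22d3 was at 20.16, 21.67 and 20.52 CPM in D647V and at 25.34, 24.28 and 25.95 CPM in D647V-Tetra. Every D647V-Tetra library was above every D647V library, a difference of 0.28 ± 0.05 (log2, SE; adjusted p = 0.00915, edgeR), and the call was lost without D647V replicate 1 (0.26 without both replicate 1 libraries, adjusted p = 0.142). WT libraries held 26.5 and 23.88 CPM of Tsc22d3, both above every D647V library. With Dex the line difference of Tsc22d3 was -0.07, and the change of the line difference was itself called (-0.35, adjusted p = 0.0358, edgeR). The 3 lower genes were Dusp1, a phosphatase that inactivates MAP kinases, Errfi1, an inhibitor of the EGF receptor, and Sgk1, a kinase that controls ion transport.

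Dusp1 was at 11.47, 11.23 and 13 CPM in D647V and at 8.524, 9.198 and 9.874 CPM in D647V-Tetra, without overlap (-0.37, adjusted p = 0.0324, edgeR). With Dex its order turned: the line difference was 0.39, again called (adjusted p = 0.0312, edgeR). Errfi1 did the same, at -0.30 in EtOH (adjusted p = 0.0164, edgeR) and 0.50 with Dex. Sgk1 was lower in D647V-Tetra under both treatments, by a log2 difference of -0.16 in EtOH and -1.09 with Dex. The EtOH calls of Dusp1 and Sgk1 were lost in each of the 6 fits that left out 1 EtOH library, and that of Errfi1 in 3 of the 6. Other hormone-induced genes did not pass in EtOH, with Fkbp5 at 0.13 (adjusted p = 0.18, edgeR), Per1, a clock gene, at -0.32 (adjusted p = 0.233, edgeR) and Ccn2, a matricellular protein, at -0.01 (adjusted p = 0.92, edgeR). Lcn2, a secreted iron-carrier protein, was at or below 0.1433 CPM in all 6 libraries.

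Genes that respond to Dex in WT cells of the other library set, which take no part in this comparison, were then counted. There 2.0% of genes tested were induced and 1.4% repressed. Of 321 genes induced there and tested here, 1 was higher and 25 lower in D647V-Tetra without hormone, 8.1% against 4.53% of all genes. Of 226 repressed genes 2 were higher and 40 lower, 18.6% in all. With a stricter filter on low counts the called shares were 11% (induced) and 25% (repressed), beside 10% of all genes. The induced share was then near that of all genes. Median exon lengths were 4391 bases (induced) and 4526 (repressed), against 3345 over all genes tested. Median line differences were -0.06 (induced) and -0.10 (repressed), so both sets lay on the lower side. Offsets that took out each library's trend with transcript length and GC content left 9 lower genes in the induced set and 18 in the repressed set, where 1.5% of all genes were called. Leaving out D647V replicate 1, D647V replicate 2, D647V-Tetra replicate 1 or D647V-Tetra replicate 3 gave called shares of 2.18% to 4.05% and 7.08% to 11.5%, beside 1.08% to 1.89% of all genes in the same fits. Without both replicate 1 libraries the called shares were 0.312% and 3.11%, beside 0.287% of all genes.

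Small nucleolar RNAs (snoRNAs) guide chemical modification of ribosomal and spliceosomal RNA, and most are cut out of introns of host transcripts. Several host transcripts, among them Gas5, Zfas1 and Dancr, encode no large protein, and their exons are known to be degraded in step with translation. All 17 tested host genes carrying the name Snhg and a number, or named Gas5, Zfas1 or Dancr, had a positive line difference in EtOH. Of these 8 were called higher and 0 lower, where 0.53% of all genes were called higher, and their median was 0.29 (log2). This set was assembled after its values were seen. With Dex, in separate libraries of the same lines, 5 of the 17 were called higher, beside 0.895% of all genes. There 15 of the 17 were above 0 and the median was 0.24. With length and GC offsets 4 of the 17 were called higher in EtOH, where 48 of 17535 genes tested were higher. The medians were then 0.29 for the 17 and 0.03 over all genes. Without offsets, other non-coding classes also had medians away from 0. Those of 103 bidirectional promoter transcripts were 0.28 in EtOH and 0.23 with Dex, with 1 called higher in EtOH. In 564 antisense transcripts they were 0.15 and 0.14, with 7 called higher in EtOH. The 191 sense intronic transcripts went the other way in EtOH, at -0.43 and 0.21.

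Zfas1, which hosts snoRNAs and lies antisense to the start of Znfx1, was at 42.2, 46.95 and 47.35 CPM in D647V and at 60.63, 59.93 and 60.09 CPM in D647V-Tetra. The D647V-Tetra libraries agreed closely and all lay above the D647V libraries, a difference of 0.40 ± 0.05 (log2, SE; adjusted p = 0.00161, edgeR). The call held in each of the 6 fits that left out 1 EtOH library and without both replicate 1 libraries (0.35, adjusted p = 0.0313, edgeR). With Dex the difference was 0.37 (adjusted p = 0.000409, edgeR).

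Gas5, a growth-arrest transcript whose RNA has been described as a decoy for the DNA-binding domain of GR, was the most abundant called host gene. It was at 281.4, 267.8 and 290.5 CPM in D647V and at 346.1, 333.0 and 326.8 CPM in D647V-Tetra. Again no library overlapped, with a difference of 0.26 ± 0.04 (log2, SE; adjusted p = 0.00345, edgeR) that was called in all 6 fits leaving out 1 EtOH library. Without both replicate 1 libraries it was 0.25 and not called (adjusted p = 0.0668, edgeR). WT cells held 291.7 and 295.0 CPM of Gas5, between the lines.

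Dancr was at 4.588, 5.119 and 5.503 CPM in D647V and at 7.255, 7.364 and 7.598 CPM in D647V-Tetra (0.55 ± 0.11, log2, SE; adjusted p = 0.00892, edgeR). Snhg1, a host of several box C/D snoRNAs, was at 101.8, 122.7 and 126.6 CPM against 162.3, 142.1 and 148.5 CPM, a difference of 0.37 (adjusted p = 0.0128, edgeR). Snhg3 (0.29), Snhg5 (0.20), Snhg12 (0.33) and Snhg20 (0.34) were also called. Of these, Snhg12 and Snhg20 were each called in only 1 of the 6 fits that left out a library, and Snhg3 and Snhg5 in 2. Snhg1 was called in 4 of the 6 and Dancr in 5. Without both replicate 1 libraries Snhg20 was called (0.47, adjusted p = 0.0461, edgeR), and Dancr, Snhg1, Snhg3, Snhg5 and Snhg12 were not. Snhg6, Snhg8 and Snhg15 had differences of 0.20 to 0.23 that did not pass.

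**Figure D1:**
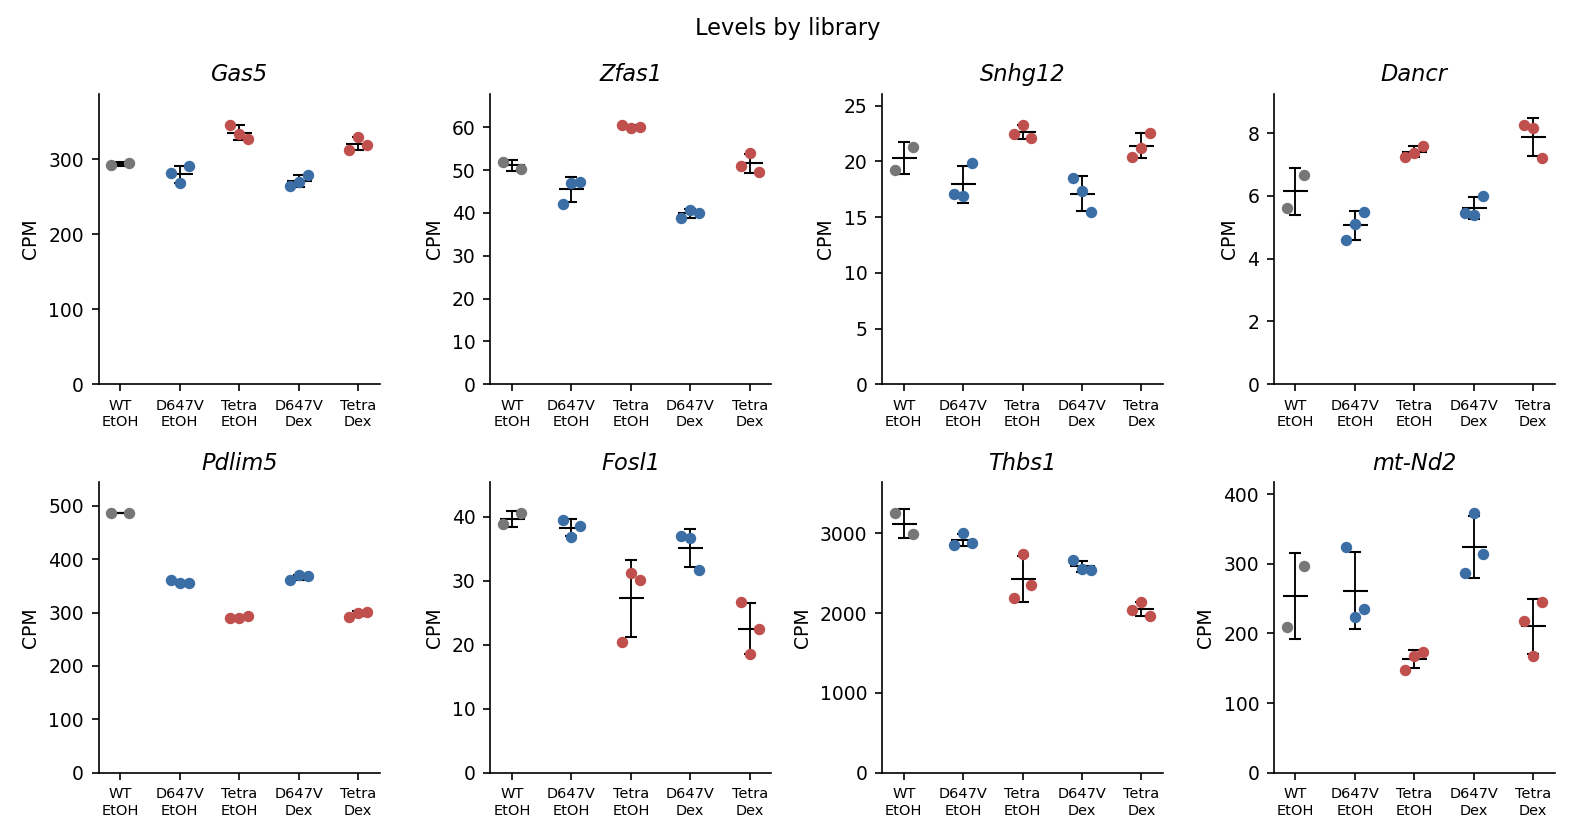
CPM of 8 genes in each library of WT, D647V and D647V-Tetra (Tetra) with EtOH, and of D647V and D647V-Tetra with Dex. Points are libraries, and bars are the mean and SD. Zfas1 sat at 59.93 to 60.63 CPM in D647V-Tetra with EtOH, above all 3 D647V libraries.

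Because many genes of the translation machinery start transcripts at a run of pyrimidines, the annotated starts of the 8 called host genes were read from RefSeq promoters (GRCm38.p6). Each line shows 20 bases before the start and 30 from it on, in the direction of transcription, and capitals mark a run of at least 5 C or T bases that begins at the first transcribed base. The second annotated start of Gas5 and the start of Snhg12 have such a run, and Zfas1 and Dancr are shown as host genes without one.
Gas5, start 2, chr1:161035146-161035195, plus strand: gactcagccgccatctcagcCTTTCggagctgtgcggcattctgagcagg
Snhg12, chr4:132308658-132308707, plus strand: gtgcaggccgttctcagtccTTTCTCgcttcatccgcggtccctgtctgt
Zfas1, chr2:167062914-167062963, plus strand: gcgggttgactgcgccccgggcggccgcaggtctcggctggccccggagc
Dancr, chr5:74093040-74093089, plus strand: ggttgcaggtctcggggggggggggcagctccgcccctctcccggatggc
The run was present in 2 of the 8 host genes and in 1457 of all 32851 promoters (4.44%). Of tested genes with a promoter, 558 of 10516 (5.31%) had it at one of their starts, compared with 6 of 48 (12.5%) of those higher in D647V-Tetra and 23 of 534 (4.31%) of those lower. The run was searched on the transcribed strand only, and its presence is a description of these letters.

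Small structural RNAs had calls in the same direction. Rnu11, the small nuclear RNA of the minor spliceosome, had the largest difference under the naming rule, at 3.962, 7.901 and 8.032 CPM in D647V and 21.2, 11.49 and 13.63 CPM in D647V-Tetra. Its difference was 1.21 ± 0.30 (log2, SE; adjusted p = 0.03, edgeR), its libraries spread widely within each line, and it was called in 2 of the 6 fits that left out a library (0.66 without both replicate 1 libraries). Snord104, a box C/D snoRNA, was at 7.035, 7.749 and 7.968 CPM against 14.71, 11.36 and 11.1 CPM (0.71, adjusted p = 0.00492, edgeR), and it was called in all 6. The list of structural non-coding RNA had 20 tested members, of which 5 were higher and 0 lower, with a median of 0.38 in EtOH and 0.25 with Dex. The 5 were Rnu11 and the host genes Snhg1, Snhg5, Snhg12 and Gas5, which are already counted above as host genes. With length and GC offsets 1 of the 20 was called higher in EtOH, where 48 of 17535 genes tested were higher. By annotation class, 6 of 186 snoRNAs and 3 of 21 small Cajal body RNAs were called higher, beside 0.53% of all genes, with medians of 0.34 and 0.45. With Dex these medians were 0.34 and 0.03.

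Among ribosomal protein genes 1 of 57 tested members, Rpl5, was called higher (0.24), and the list median was 0.15 in EtOH and 0.01 with Dex. In EtOH 29 of the 57 had an unadjusted p below 0.05 in edgeR, beside 21.7% of all genes tested. By DESeq2 9 of the 57 were called in either direction, beside 8.23% of all genes tested. With length and GC offsets 0 of the 57 were called higher and the median was 0.14. Rps10, also named by the rule, differed by 0.37. Its counts are uncertain because it has near-identical copies, and reads that map to several places appear not to have been counted. Hist1h3d, a histone gene with the same limit, differed by 0.48. Ddit3 (CHOP) and Trib3, both effectors of the integrated stress response, were higher by 0.27 each (adjusted p = 0.0133 and 0.0318, edgeR), and were called in 4 and 1 of the 6 fits that left out a library. They were 2 of 34 tested members of that list, beside 0.53% of all genes called higher, and with length and GC offsets 0 of the 34 were higher. By DESeq2 5 members of this list were called in either direction without offsets, and 10 had an unadjusted p below 0.05 in edgeR. Over all genes tested, DESeq2 called 8.23%, and 21.7% had an unadjusted p below 0.05 in edgeR. Iars, the isoleucyl-tRNA synthetase, was lower (-0.23). Dbp, a transcription factor of the circadian output, was higher by 0.35, and 1 of 16 tested clock genes was called. The remaining higher genes named by the rule were Tmem44, Rab26os, Bloc1s2 and Znhit3, at 0.34 to 0.39. Rpl5, Rps10, Hist1h3d, Dbp and these 4 were each called in at most 3 of the 6 fits that left out a library, and Znhit3 in 0.

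The mitochondrial genome encodes subunits of the respiratory chain and the ribosomal RNAs that translate them. Of 14 tested mitochondrial protein and ribosomal RNA genes 3 were called lower and 0 higher, where 4.0% of all genes were lower, and the list median was -0.27 in EtOH and -0.45 with Dex. All 3 encode subunits of complex I. mt-Nd2 was at 324.7, 223.8 and 235.0 CPM in D647V and at 148.2, 167.1 and 173.3 CPM in D647V-Tetra. The groups did not overlap, with D647V replicate 1 highest, and the difference was -0.68 ± 0.15 (log2, SE; adjusted p = 0.0185, edgeR). It was called again with Dex (-0.63, adjusted p = 0.046, edgeR), and its EtOH call was lost without D647V replicate 1, without D647V-Tetra replicate 1 and without D647V-Tetra replicate 3. Without both replicate 1 libraries it was -0.43 (adjusted p = 0.321, edgeR). mt-Nd4 (-0.76) and mt-Nd5 (-0.63) passed in EtOH only, and the change between treatments did not pass for either (adjusted p = 0.827 and 0.704, edgeR). The ribosomal RNAs mt-Rnr1 (0.15) and mt-Rnr2 (0.07) and the light-strand gene mt-Nd6 (0.14) had positive differences that did not pass. So did mt-Nd3 (0.32) and mt-Co3 (0.07). The share of all counts on mitochondrial genes overlapped between the lines in EtOH. It was 1.62%, 1.32% and 1.485% in D647V and 1.37%, 1.38% and 1.38% in D647V-Tetra. mt-Co2, mt-Co3 and mt-Atp6 had few reads for their class, at most 5.424 CPM, and are uncertain because nuclear copies of mitochondrial DNA share their sequence.

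The lower genes were long. Their median exon length was 9902 bases, compared with 3345 over all genes tested and 2125 for the higher genes. Of the 702 lower genes 419 (59.7%) belonged to the longest 10% of genes, those with at least 8782 exonic bases, and 23.9% of those was called lower. The median line difference went from 0.08 in the shortest 10% to -0.12 in the longest in EtOH, and was 0.07 and 0.01 in these groups with Dex. With Dex 16 genes of the longest 10% were higher and 6 lower.

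**Figure D2:**
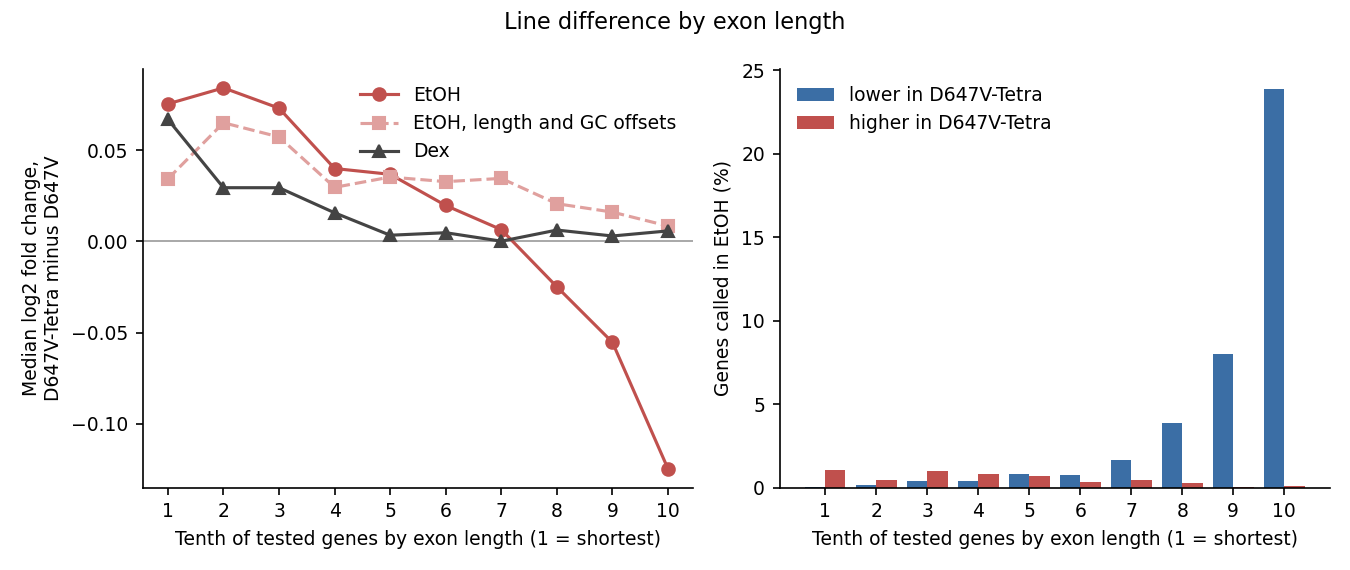
Line difference over 10 equal groups of genes by exon length, from the shortest (1) to the longest (10). One panel gives the median log2 fold change, D647V-Tetra minus D647V, in EtOH, in EtOH with length and GC offsets, and with Dex, and the other gives the percent of genes called higher or lower in EtOH. In the longest group 23.9% of genes were called lower.

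The length trend was also present library by library. The median log2 CPM of the longest 10% minus that of genes below the median length was 0.09, 0.03 and -0.02 in the 3 D647V libraries with EtOH. In the 3 D647V-Tetra libraries with EtOH it was -0.18, -0.10 and -0.17, below every other library of the set. With Dex it was 0.04 to 0.07 in D647V and 0.02 to 0.07 in D647V-Tetra, and in WT it ranged from -0.07 to 0.03 over both treatments. Offsets that took out each library's trend with length and GC content left 263 calls, 48 higher and 215 lower, and the median difference of the 702 lower genes was then -0.20. What sets the trend was not tested.

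**Figure D3:**
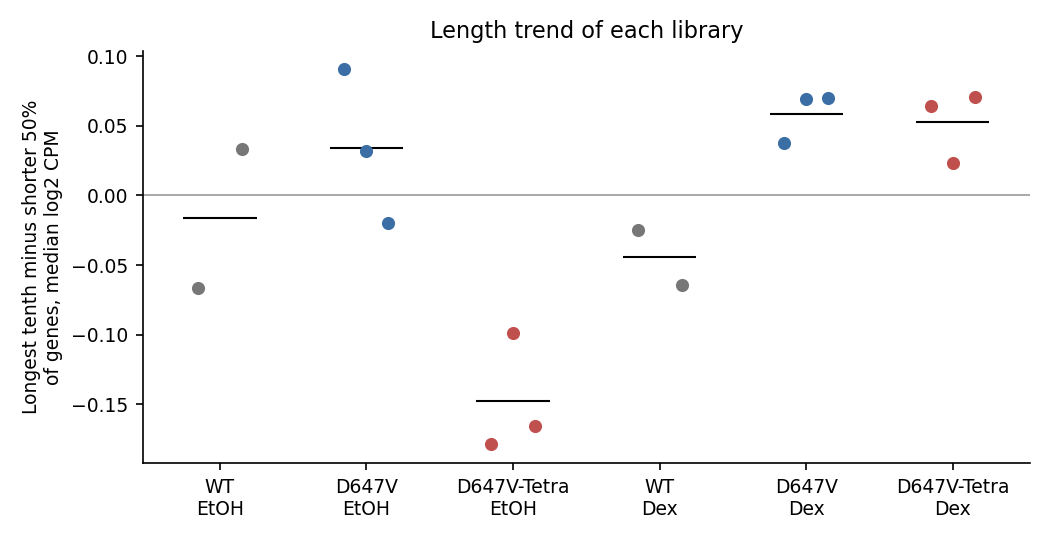
Length trend of each of the 16 libraries of the set, as the median log2 CPM of the longest 10% of genes minus that of genes below the median length. Points are libraries, by line and treatment, and short lines are group means. The 3 D647V-Tetra libraries with EtOH lie at -0.18, -0.10 and -0.17, below all others.

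Zbtb20, a zinc finger repressor (mm10, chr16:42875881-43642602), was at 249.7, 219.6 and 170.4 CPM in D647V and at 130.5, 141.2 and 110.9 CPM in D647V-Tetra. The difference was -0.74 ± 0.12 (log2, SE; adjusted p = 0.0026, edgeR), and with length and GC offsets it was -0.42 (adjusted p = 0.0103, edgeR). With Dex the lines differed by 0.01, and the change between treatments was called (0.75, adjusted p = 0.0376, edgeR). Nav1, a neuron navigator protein (-0.73), Kmt2a, a histone H3 lysine methyltransferase (-0.71), Cbl, a ubiquitin ligase for receptor tyrosine kinases (-0.70), and Atp2b4, a plasma membrane calcium pump (-0.69), were called with every EtOH library left out in turn. Pcdhb19, a clustered protocadherin (-0.82), Nynrin (-0.81), Hivep3 (-0.78), Zfp469 (-0.74), Hspg2 (-0.70), Ldb3 (-0.70) and Kmt2d, a second lysine methyltransferase (-0.69), lost their calls in 1 to 5 of those 6 fits.

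GR acts through coactivators and corepressors, and 8 of 38 tested genes of GR itself, its co-chaperones and its coregulators were lower (21.1%, against 4.0% of all genes), with 0 higher and a median of 0.0028. They were the acetyltransferases Ep300 (-0.56) and Crebbp (-0.59), the steroid receptor coactivators Ncoa1 (-0.27), Ncoa2 (-0.23) and Ncoa3 (-0.28), the corepressor Ncor1 (-0.23), the Mediator subunit Med1 (-0.22) and the chromatin remodelling subunit Arid1a (-0.50). Ep300 was at 69.59, 60.05 and 53.41 CPM in D647V and at 38.48, 46.49 and 39.23 CPM in D647V-Tetra, without overlap (adjusted p = 0.00513, edgeR). With Dex 1 member of this list was higher and 1 lower, beside 0.895% and 0.975% of all genes. With length and GC offsets 3 of the 38 were lower in EtOH, where 215 of 17535 genes tested were lower. The 38 members had a median exon length of 4745 bases, against 3345 over all genes tested.

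Of 29 tested laminins, fibronectin and other matrix glycoproteins 7 were lower (24.1%, against 4.0% of all genes) and 0 higher, at a list median of -0.14. With length and GC offsets 4 of the 29 were lower and the median was -0.06. With these offsets 215 of 17535 genes tested were lower, and the median over all genes was 0.03. The 29 members had a median exon length of 6943 bases, against 3345 over all genes tested. Fn1 (fibronectin, mm10, chr1:71585520-71653200) was at 3025, 2924 and 2410 CPM in D647V and at 1798, 2188 and 1866 CPM in D647V-Tetra. The difference was -0.51 ± 0.08 (log2, SE; adjusted p = 0.00271, edgeR) and it was called with each EtOH library left out, and was -0.39 without both replicate 1 libraries (adjusted p = 0.0779, edgeR). With Dex the lines did not pass (0.06, adjusted p = 0.848, edgeR), and the change between treatments did (0.57, adjusted p = 0.0292, edgeR). The other 6 were the basement membrane genes Lama5 (-0.45), Lamb1 (-0.21), Lamc1 (-0.32) and Hspg2 (perlecan), with Thbs1 (thrombospondin, -0.26) and Ltbp1, which tethers latent TGF-beta (-0.27). Col6a3, a chain of the microfibrillar collagen VI, was the only 1 of 28 tested collagens called (888.1, 943.5 and 832.6 against 587.7, 700.8 and 641.2 CPM, a difference of -0.47). Col6a3 and Lamc1 were still called without both replicate 1 libraries, at -0.40 and -0.29.

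TGF-beta and BMP signalling, which controls matrix production and growth arrest, had 7 of 27 tested genes lower (25.9%, against 4.0% of all genes) and 0 higher, at a median of -0.15. They included the ligand genes Tgfb2 (-0.35) and Inhba (-0.23), the receptors Bmpr2 (-0.51) and Acvr1 (-0.39) and the inhibitors Smad7 (-0.30) and Skil (-0.23). With length and GC offsets 5 of the 27 were lower, where 215 of 17535 genes tested were lower. With Dex 5 of the 27 were lower, beside 0.975% of all genes. The 27 members had a median exon length of 5042 bases, against 3345 over all genes tested. Tgfb2 was at 24.07, 24.73 and 22.24 CPM in D647V and at 17.68, 19.41 and 18.81 CPM in D647V-Tetra, and it was called with each EtOH library left out (adjusted p = 0.00345, edgeR).

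Receptors of other pathways had calls in the same direction, beside 4.0% of all genes called lower. With length and GC offsets 215 of 17535 genes tested were lower. Notch1 (-0.58), Notch2 (-0.43), Notch3 (-0.48) and the Hedgehog effector Gli3 (-0.55) were 4 of 13 tested Notch and Hedgehog genes, with 0 higher, and with length and GC offsets 4 of the 13 were again called lower. Among semaphorin, ephrin, netrin and slit genes 9 of 46 were lower, and 4 with offsets, including the co-receptors Nrp1 (-0.24) and Nrp2 (-0.25) and the plexins Plxna1 (-0.33), Plxna2 (-0.43) and Plxnd1 (-0.33). Igf1r (-0.48) and Insr (-0.28), the receptors of insulin-like growth factor and insulin, and Lrp6 (-0.25), a Wnt co-receptor, were called with each EtOH library left out. Tead1, the DNA-binding partner of YAP, was lower by -0.61, with Ptpn14, Lats2 and Myof 4 of 25 tested YAP and TEAD genes, of which 1 was lower with offsets. Mki67 (-0.35) and Cdk6 (-0.34) were 2 of 48 tested cell cycle genes (4.17%), near the share of all genes. Median exon lengths were 7691 bases (Notch and Hedgehog list), 6385 (semaphorins, ephrins, netrins and slits) and 5033 (YAP and TEAD). Over all genes tested the median was 3345 bases.

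**Figure D4:**
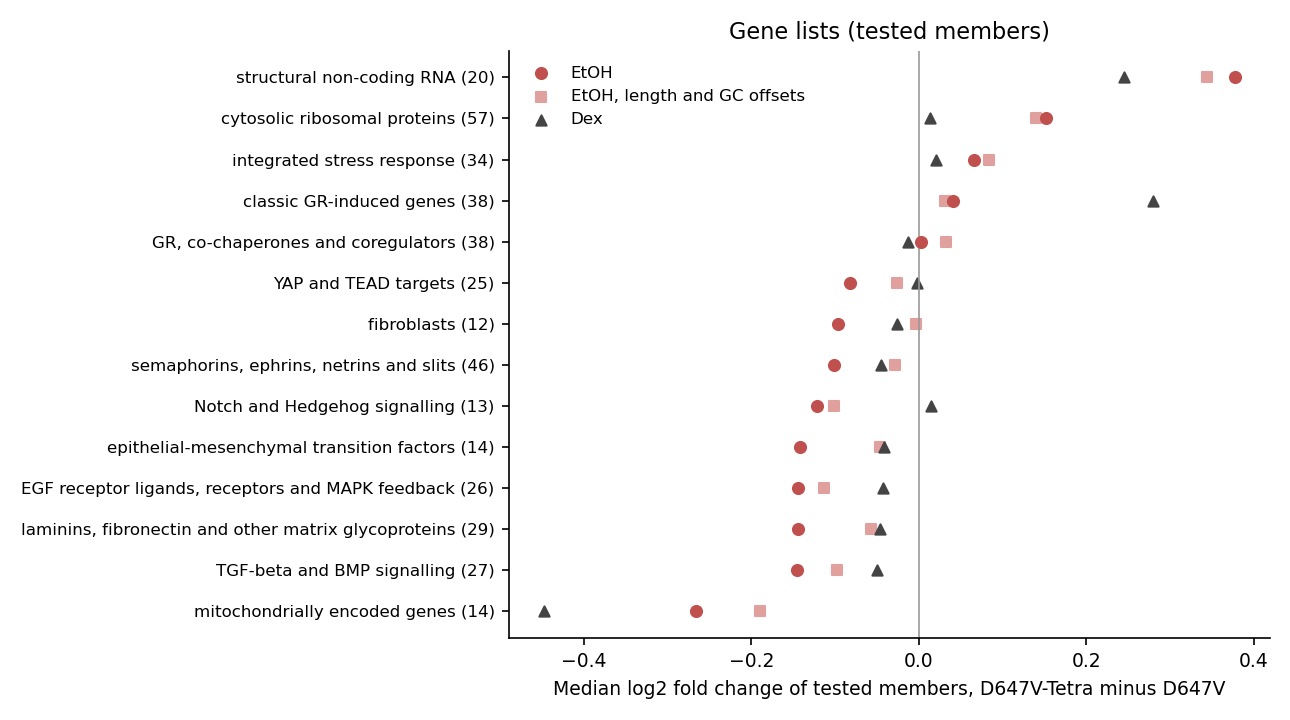
Median log2 fold change, D647V-Tetra minus D647V, of the tested members of each list with at least 3 calls, and of the ribosomal protein and fibroblast lists, in EtOH, in EtOH with length and GC offsets, and with Dex. The number in brackets is the number of tested members. The median of structural non-coding RNA is 0.38 in EtOH, and that of the mitochondrially encoded genes is -0.27.

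Of the 49 lists 16 had 0 calls in edgeR's test, among them interferon response, cholesterol synthesis, glycolysis and hypoxia targets, keratins, Hox genes and the S100, annexin and metallothionein genes. These 16 lists held 240 tested members, of which 29 had an unadjusted p below 0.05 and 9 were called by DESeq2. Over all genes tested, 21.7% had an unadjusted p below 0.05 and 8.23% were called by DESeq2. Medians per chromosome over the abundant genes lay between -0.02 and 0.02 on every nuclear chromosome and at -0.29 on the mitochondrial one.

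The line difference was also measured with Dex in 6 other libraries, which share none with the EtOH comparison. There 328 genes (1.87%) were called, 157 higher (0.895%) and 171 lower (0.975%). Of the higher genes 11 were shared, which is 11.8% of the EtOH calls and 7.01% of the Dex calls. Of the lower genes 29 were shared, or 4.13% of the EtOH calls and 17% of the Dex calls. The median Dex difference was 0.17 for genes higher in EtOH and -0.04 for genes lower in EtOH. The change of the line difference was called for 153 genes (0.873%), including 71 of the 702 lower genes and 2 of the 93 higher ones.

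**Figure D5:**
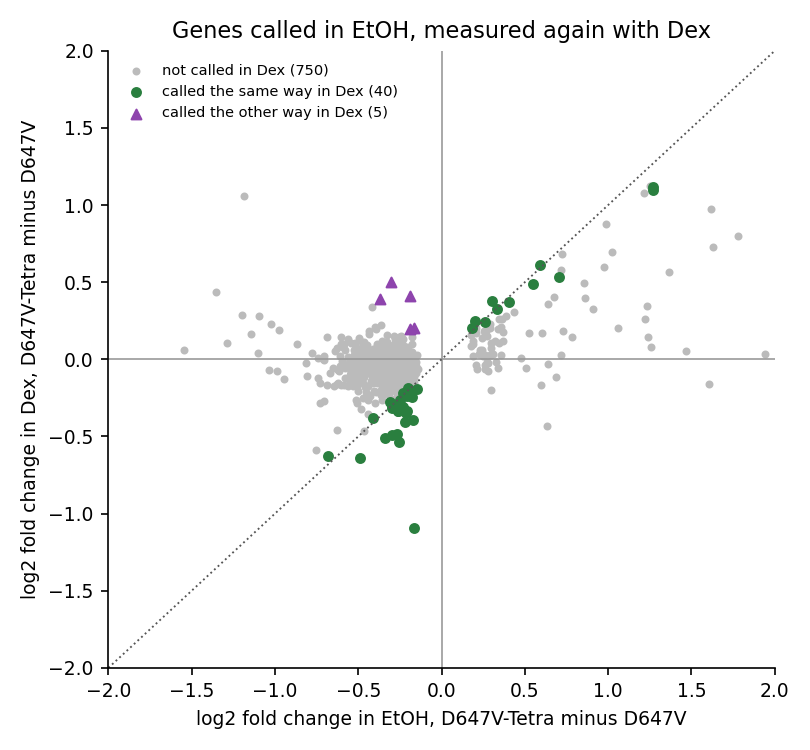
Log2 fold change, D647V-Tetra minus D647V, in EtOH (x axis) and with Dex (y axis) for the 795 genes called in EtOH. Points are genes, the dotted line marks equal differences, and 3 genes lie outside the axes, which end at 2 and -2. Most lower genes lie near 0 on the Dex axis, where their median is -0.04.

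Genes called in both treatments were named for that reason, after their values were seen. Pdlim5, a scaffold protein of actin stress fibres (mm10, chr3:142239590-142395696), was at 360.3, 356.4 and 355.4 CPM in D647V and at 289.0, 290.3 and 293.9 CPM in D647V-Tetra. The libraries of each line lay close together and the lines were well apart, by -0.30 ± 0.04 (log2, SE; adjusted p = 0.00161, edgeR). The difference with Dex was also -0.30. Smad7, Dusp8 and Vgll3, at -0.30, -0.41 and -0.31, were likewise called in every fit that left out 1 EtOH library. Others lower under both treatments included the AP-1 subunit Fosl1 (-0.49), the macrophage growth factor Csf1 (-0.27), the pentose phosphate enzyme G6pdx (-0.26), the aryl hydrocarbon receptor Ahr (-0.30), Srf (-0.22), Stat3 (-0.15) and the glutathione transferase Gstm1 (-0.21). Csf1 and G6pdx were each called in 4 of the 6 fits that left out an EtOH library, Ahr and Gstm1 in 2, Stat3 in 1 and Srf in 0. Fosl1 was at 39.43, 36.9 and 38.6 CPM in D647V and at 20.37, 31.2 and 30.18 CPM in D647V-Tetra, and was called in 1 of the 6 fits that left out a library.

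Genes higher under both treatments included Zfas1, Gas5, Dancr, Snhg12, Snhg5, Snord104, Cox17, a copper chaperone of cytochrome oxidase (0.30), Hnrnpdl, an RNA-binding protein (0.18), and C130036L24Rik. Snhg5 and Cox17 were called in 2 of the 6 fits that left out an EtOH library and Hnrnpdl in 0. C130036L24Rik was at 5.673, 4.891 and 5.528 CPM in D647V and at 8.305, 7.894 and 7.991 CPM in D647V-Tetra (0.59, adjusted p = 0.00345, edgeR), and at 0.61 with Dex. Called in opposite directions were 5 genes: Dusp1, Errfi1, Zc3h12c, Mbnl2 and Rbfox2, all lower in EtOH and higher with Dex in D647V-Tetra. The EtOH calls of Zc3h12c, Mbnl2 and Rbfox2 held in 1, 2 and 2 of the 6 fits. Of the genes whose line difference changed most between treatments, Orm3 (2.15), Nipal1 (1.63), Adgra1 (1.27), Ccn2 (-2.20), Sgk1 (-0.93) and Cxcl5 (-0.92), Sgk1 alone was called in EtOH.

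The 2 lines were set beside the WT line in EtOH for some of these genes. Both differences share the WT libraries, and each also shares its line's libraries with the comparison above. Fn1 was at 3301 and 3207 CPM in WT, with D647V at -0.22 (adjusted p = 0.169, edgeR) and D647V-Tetra at -0.74 (adjusted p = 4.7e-05, edgeR). Pdlim5 was at 486.3 and 486.2 CPM in WT, and both lines were lower, by -0.44 and -0.74. Zfas1 was at 52 and 50.21 CPM, between the lines, with D647V at -0.17 (adjusted p = 0.0832, edgeR) and D647V-Tetra at 0.24 (adjusted p = 0.00707, edgeR). Smad7 was at 45.56 and 47.66 CPM, with D647V at -0.05 (adjusted p = 0.745, edgeR) and D647V-Tetra at -0.35 (adjusted p = 0.000778, edgeR).

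The called genes with the greatest fitted change had few reads or rested on a single library. Gm47132, an unclassified transcript, had 22 counts over the 3 D647V libraries and 1 over the 3 D647V-Tetra libraries, and was called lower (adjusted p = 0.0107, edgeR). Gm23935, an annotated microRNA gene of 57 bases, was at 53.12 CPM in D647V replicate 1 and at most 0.141 CPM in the other 5 libraries. It was noticed after its values were seen, and without D647V replicate 1 its difference was 0.59 and not called.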

How the data were processed

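Counts per gene of RNA-seq libraries were used as deposited. Per the file headers, the authors made the counts with featureCounts 2.0.3, using GENCODE vM21 and strand option 2. The submitters' processing notes name bcl2fastq 2.17, cutadapt, STAR and mm10. Per the labels, 5% Drosophila S2 cells were added as a spike-in (not used here), rRNA was depleted and reads were 100 bp paired-end. The labels describe 2 kit batches without assigning libraries; both lines belong to set 2, whose 16 headers all carry the word "resent". CPM values are scaled by the library totals of the tested genes, adjusted by TMM normalization factors. edgeR 4.0.16 (R 4.3.3) was fitted to the 16 set 2 libraries with TMM factors, a mean per group, filterByExpr and a two-sided quasi-likelihood test. Dex-responsive genes came from a separate fit of the 18 libraries of set 1. Folds and standard errors are fitted values, and the biological coefficient of variation was 8.62%. The scripts were tested on simulated data. Members and gene lists were chosen with earlier results of these data known.

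Genes were named by rule: the 14 highest and 14 lowest fold changes among called genes whose groups did not overlap and whose average log2 CPM reached 1; the 2 called members of each list with the lowest adjusted p in each direction; 9 chosen receptor and hormone-response genes; called genes with at most 3 counts in one line; and the 3 highest and 3 lowest changes between treatments. The first and last parts of this rule passed over predicted and clone-named genes. The last part also required a called change and an average log2 CPM of at least 1. Alternatives were DESeq2 1.42.0, other size factors, filters on low counts, the replicate block, only the compared groups, leaving out mitochondrial and structural RNA, each library left out and a minimum fold of 1.5. Length and GC offsets and leaving out both replicate 1 libraries were added after seeing the data. Results for some genes named by the rule are not reported here.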

Additional observations from a re-analysis of the deposited data

Results flagged for a closer look

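For 23 named genes the line difference itself differed between Dex and EtOH in edgeR's test of the interaction (Benjamini-Hochberg adjusted p below 0.05). Values below are log2, the line difference with Dex minus that in EtOH. Because the change contains the EtOH difference, its sign in genes chosen for their EtOH call is no separate result. Genes lower in D647V-Tetra in EtOH and not called with Dex had changes of Zbtb20 0.75, Crebbp 0.69, Tead1 0.64, Notch2 0.62, Col6a3 0.57, Fn1 0.57, Insr 0.32, Lamc1 0.31 and Lrp6 0.29. For the 5 genes lower in EtOH and higher with Dex it was 0.80 for Errfi1, 0.76 for Dusp1, 0.60 for Zc3h12c, 0.38 for Mbnl2 and 0.37 for Rbfox2.

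Among classic hormone-induced and always-named genes Fkbp5 changed by 0.35, Tsc22d3 by -0.35, Sgk1, which was lower under both treatments, by -0.93, and Ccn2 by -2.20. Hras changed by 0.59. Orm3 (2.15), Nipal1 (1.63), Adgra1 (1.27) and Cxcl5 (-0.92) were named for their change between treatments and were not called in EtOH.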

How the results depend on the processing

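With 3 libraries per line, the number of EtOH calls moved by more than 1.5 times when some single libraries were left out. It moved by less without D647V replicate 3 (784) and without D647V-Tetra replicate 2 (1131). The EtOH calls numbered 761 with RLE size factors, 545 with library sizes only, 941 with a stricter filter and 740 without mitochondrial and structural RNA. The 795 EtOH calls became 1956 with no low-count filter, 1444 with DESeq2, 502 with the replicate block, 235 with only the groups compared, 263 with length and GC offsets, 91 with these offsets and the replicate block, 91 at 1.5-fold and 50 without both replicate 1 libraries. They ranged from 188 to 1131 over libraries left out singly. The share of higher genes among the calls was 11.7%, and 20.2% with library sizes only, 24.0% with DESeq2, 23.8% with a stricter filter and 30.0% with no filter. The replicate numbers did not pair the libraries (correlations of deviations -0.13, -0.16 and 0.06 in EtOH), so the replicate block is given only here.

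The 328 Dex calls became 716 with no filter, 608 with DESeq2, 210 with the replicate block and 63 at 1.5-fold, and 170 to 250 with a library left out, the lowest without D647V-Tetra replicate 3. The 153 calls of the change between treatments became 936 with no filter, 474 with DESeq2, 76 with library sizes only, 82 with the replicate block, 68 with offsets, 41 with offsets and the replicate block, 46 without both replicate 1 libraries and 45 at 1.5-fold. Over libraries left out singly they ranged from 49 (without D647V EtOH replicate 2) to 271 (without D647V-Tetra EtOH replicate 2).

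The called share of genes induced by Dex in WT was 19.5% with no filter, 13.4% with DESeq2, 5.3% with the replicate block, 3.27% with only the groups compared, 3.12% with offsets, 0.623% with offsets and the replicate block and 0.312% without both replicate 1 libraries (2.18% to 10.9% with a library left out). For repressed genes it was 28.3%, 8.04% with only the groups compared, 8.41% with offsets, 3.98% with offsets and the replicate block, 3.11% without both replicate 1 libraries and 11.8% at 1.5-fold in WT (7.08% to 19.9% with a library left out). The share of all genes called in the same settings was 6.06% with no filter, 8.23% with DESeq2, 2.86% with the replicate block, 1.46% with only the groups compared, 1.5% with offsets, 0.519% with offsets and the replicate block and 0.287% without both replicate 1 libraries. With a stricter filter the called shares were 11% of induced, 25% of repressed and 10% of all genes. The cause of these moves was not tested.

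Of the 113 named EtOH calls, 107 were called again with RLE size factors, 79 with library sizes only, 75 with the replicate block, 49 with offsets and 10 without both replicate 1 libraries. Single libraries left out reversed Gm23935 (-8.48 to 0.59, the latter without D647V replicate 1) and uncalled differences of Ccn2 (-0.051 to 0.037), Lcn2 (-0.69 to 0.65), Nipal1 (-0.042 to 0.164), Cxcl5 (-0.092 to 0.038), Snhg17 (-0.052 to 0.144), mt-Nd6 (-0.074 to 0.265) and mt-Rnr1 (-0.040 to 0.313). Without both replicate 1 libraries Nipal1 was at -0.048 and mt-Rnr1 at -0.0062.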
